A study of Mus musculus with 45 samples.

Results

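Bicuculline (Bic) induces action potential (AP) firing in neuron cultures by blocking GABA type A (GABA-A) receptors, and the mRNAs of 7 subunits of its target, Gabra2, Gabra3, Gabra4, Gabra5, Gabrb1, Gabrb2 and Gabrd, were followed through all conditions of the series. The genes were taken by name, as the rows of the gene count table whose Ensembl identifiers carry these symbols, which gave 7 of 54532 genes. Each row was matched once, and each gene had reads in all 45 libraries. A further 12 genes of the subunit family are described only as a list.

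GABA-A receptors are pentameric chloride channels that carry most fast synaptic inhibition in the hippocampus. A typical receptor combines α and β subunits with a γ or δ subunit, GABA binds between α and β, and bicuculline competes with GABA at this site. The α subunit shapes where a receptor sits and how it responds. Receptors with α2 or α3 are mainly synaptic, α5 is enriched in the hippocampus and contributes to tonic inhibition, and α4 assembles with δ in extrasynaptic receptors. The β subunits are required for assembly and surface delivery.

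The libraries were made from hippocampal primary neurons of newborn C57BL/6N mice, grown with B27 and 1% rat serum, given the antimitotic AraC on day in vitro 3 and treated on day 10 or 11 according to the labels. Control cultures were left untreated, and Bic cultures received 50 µM Bic for 0.5, 1 or 2 h. In the short protocol (SP), 0.5 h of Bic was followed by 0.5 h in which tetrodotoxin (TTX, 1 µM), a sodium channel blocker that stops AP firing, or TTX with 30 µM NMDA was added to the Bic. The long protocol (LP) had the same scheme with 1 h of Bic before the intervention and 1 h of intervention, which was TTX, TTX/NMDA or 50 µM TBOA, a blocker of glutamate uptake. All 8 treated conditions therefore contained Bic throughout. Each of the 9 conditions had 5 libraries, numbered 1, 3, 6, 7 and 8 in their titles, and these numbers were taken as the culture preparations. Total counts ranged from 11316580 to 81129276 per library (median 26239614). These are mixed dissociated cultures harvested whole, in which bath-applied NMDA reaches receptors inside and outside synapses. All 5 pan-neuronal, 5 excitatory and 6 inhibitory neuron markers were detected in every library, as were 6 astrocyte and 5 oligodendrocyte lineage markers. The summed microglial and endothelial markers stayed at or under 8.09 and 5.56 CPM (counts scaled to a common library size). In every library, 4 of 5 microglial and 2 of 3 endothelial markers were detected, and the remaining ones, P2ry12 and Cldn5, were at 0 in 6 and 27 libraries.

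The genes lie on 5 chromosomes of GRCm38, and 3 of them share a stretch of chromosome 5. Gabra2 (ENSMUSG00000000560, α2) spans chr5:70957597-71095849 on the minus strand. Gabra4 (ENSMUSG00000029211, α4) spans chr5:71569749-71658308 on the minus strand, and Gabrb1 (ENSMUSG00000029212, β1) runs the other way over chr5:71658113-72149037, so that the 5′ ends of this pair overlap by 196 bp on opposite strands. Gabra5 (ENSMUSG00000055078, α5) is on the minus strand at chr7:57407672-57510059. Gabrb2 (ENSMUSG00000007653, β2) is at chr11:42419757-42629028 on the plus strand. Gabra3 (ENSMUSG00000031343, α3) is at chrX:72432681-72656848 and Gabrd (ENSMUSG00000029054, δ) at chr4:155384980-155398112, both on the minus strand. The counting was strand-specific, so reads of Gabra4 and Gabrb1 were kept apart, while reads shared with overlapping genes of the same strand, which are Gm15616 for Gabrb1 and the microRNA genes Mir767 and Mir105 for Gabra3, were not counted.

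Promoter windows from RefSeq, 250 bases before to 50 after a RefSeq start on GRCm38.p6, were available for 6 of the 7 genes, with the exception of Gabrd. The RefSeq starts are not always those of the gene positions above. The printed Gabrb2 window lies within the span given for the gene, and those of Gabrb1 and Gabra3 lie outside theirs. Shown here are Gabrb1, Gabrb2 and Gabra4, the subunits with the largest decreases when NMDA was added in the LP, and Gabra3, which was called in no comparison of 2 conditions without the preparation as a block. Capitals mark matches on either strand to the cAMP response element (CRE) TGACGTCA, its core TGACG, the AP-1 motif TGANTCA or the EGR motif GCGNGGGCG, which are bound by activity-regulated factors. The CRE core is part of the full CRE, and the other motifs were searched independently of one another. The Gabra4 window is chr5:71658259-71658558 (minus strand), the Gabrb1 window chr5:71657671-71657970 (plus), the Gabrb2 window chr11:42420190-42420489 (plus) and the Gabra3 window chrX:72656870-72657169 (minus).
Gabra4: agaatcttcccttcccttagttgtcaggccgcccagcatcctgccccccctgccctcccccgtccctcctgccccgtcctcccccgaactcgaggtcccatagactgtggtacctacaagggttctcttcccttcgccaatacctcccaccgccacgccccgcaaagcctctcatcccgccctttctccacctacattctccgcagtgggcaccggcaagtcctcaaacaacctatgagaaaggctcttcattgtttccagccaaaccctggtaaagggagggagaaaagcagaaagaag
Gabrb1: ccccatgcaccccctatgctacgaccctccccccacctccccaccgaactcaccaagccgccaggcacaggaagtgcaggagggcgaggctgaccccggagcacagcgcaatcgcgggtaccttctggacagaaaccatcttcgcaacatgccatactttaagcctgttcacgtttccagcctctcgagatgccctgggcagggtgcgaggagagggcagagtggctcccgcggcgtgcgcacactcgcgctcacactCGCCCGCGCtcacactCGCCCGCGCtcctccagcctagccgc
Gabrb2: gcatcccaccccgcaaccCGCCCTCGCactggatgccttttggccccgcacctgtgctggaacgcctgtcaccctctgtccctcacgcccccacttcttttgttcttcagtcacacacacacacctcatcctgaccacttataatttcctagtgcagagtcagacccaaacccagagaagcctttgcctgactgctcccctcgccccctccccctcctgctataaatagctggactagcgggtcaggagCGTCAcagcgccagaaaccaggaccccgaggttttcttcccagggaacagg
Gabra3: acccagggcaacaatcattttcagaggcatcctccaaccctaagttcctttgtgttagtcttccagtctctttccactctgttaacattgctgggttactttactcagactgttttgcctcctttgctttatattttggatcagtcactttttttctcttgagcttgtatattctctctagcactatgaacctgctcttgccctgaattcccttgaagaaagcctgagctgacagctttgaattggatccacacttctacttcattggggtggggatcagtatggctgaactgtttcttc
The Gabrb1 window held 2 EGR matches near its 3′ end, and the Gabrb2 window held 1 EGR match and 1 CRE core. The Gabra4 and Gabra3 windows held none of these 4 motifs. RefSeq lists further starts for 3 of the printed genes. The other window of Gabrb1, the other 2 of Gabrb2 and the other window of Gabra3, not printed here, held none of them either. The windows of Gabra2 and Gabra5, which also fell when NMDA was added in the LP, held none of the 4 motifs and are not printed. Over all 32851 RefSeq promoter windows of this length, 5.55% held an EGR match, 20.8% a CRE core, 7.81% an AP-1 match and 1.79% a full CRE. GC content was 66% for Gabrb1, 59% for Gabrb2, 58.7% for Gabra4 and 43% for Gabra3.

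To compare the subunits with each other, CPM scaled by TMM, which corrects for library composition, were divided by the length of each gene's exons. In untreated neurons the α2 and α5 mRNAs were the most abundant of the 7, with 85.8 ± 12.6 CPM per kb for Gabra2 and 84.2 ± 6.03 for Gabra5 (SD, n = 5, also below). These levels were indistinguishable within their spread, and the pair exchanged rank between conditions. The next subunits were Gabra3 at 23.9 ± 2.31, Gabrb2 at 20.4 ± 5.78 and Gabrb1 at 17.8 ± 2.73 CPM per kb, each overlapping its neighbour in this order. Gabra4 followed at 11.9 ± 1.14 and Gabrd at 3.64 ± 0.592 CPM per kb, each below the gene before it in 5 of 5 libraries with ranges apart. The order from Gabra3 to Gabrd was the same in all 9 conditions. Per length, the summed level of the 7 mRNAs was 248 ± 14.2 CPM per kb in the control, 225 ± 4.53 after 2 h Bic, 247 ± 16.5 with TTX in the LP and 180 ± 18.1 with TTX/NMDA in the LP, where the highest library (196) lay below the lowest of the other 8 conditions (198, with TTX/NMDA in the SP).

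**Figure D1:**
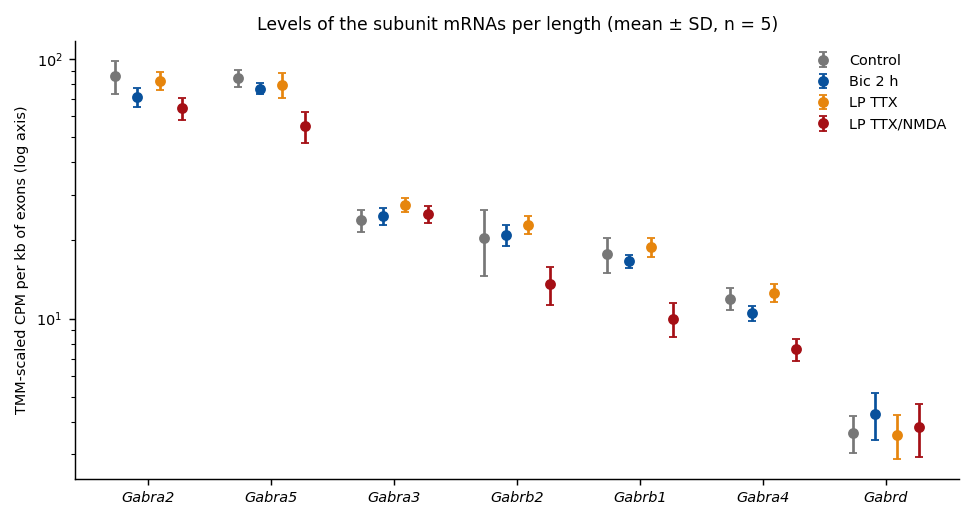
Mean ± SD (n = 5) of TMM-scaled CPM per kb of exons (log axis) for the 7 subunit mRNAs in the control, after 2 h Bic and with TTX or TTX/NMDA in the LP. Gabra2 and Gabra5 lie above the rest in each condition shown, and with TTX/NMDA the levels of Gabra5, Gabrb2, Gabrb1 and Gabra4 are below those with TTX while the error bars of Gabra3 and Gabrd overlap between conditions.

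The levels of the subunits in each library frame the comparisons that follow. All values from here on are TMM-scaled CPM, and fold changes are log2 values from edgeR (quasi-likelihood F test), with p-values adjusted over all genes by the Benjamini-Hochberg method. A test for any difference among the 9 conditions called 5 of the 7 subunits, against 26% of all genes and 59.5% of the 13592 genes with a mean of at least 1 CPM, to which all 7 belong, with adjusted p-values from 1.56e-12 (Gabrb1) to 0.0012 (Gabra2). Gabra3 (adjusted p = 0.138) and Gabrd (adjusted p = 0.374) did not pass. With the culture preparation as a block, all 7 passed (Gabra3 0.00219, Gabrd 0.0123), as did 75.7% of genes in that fit.

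**Figure D2:**
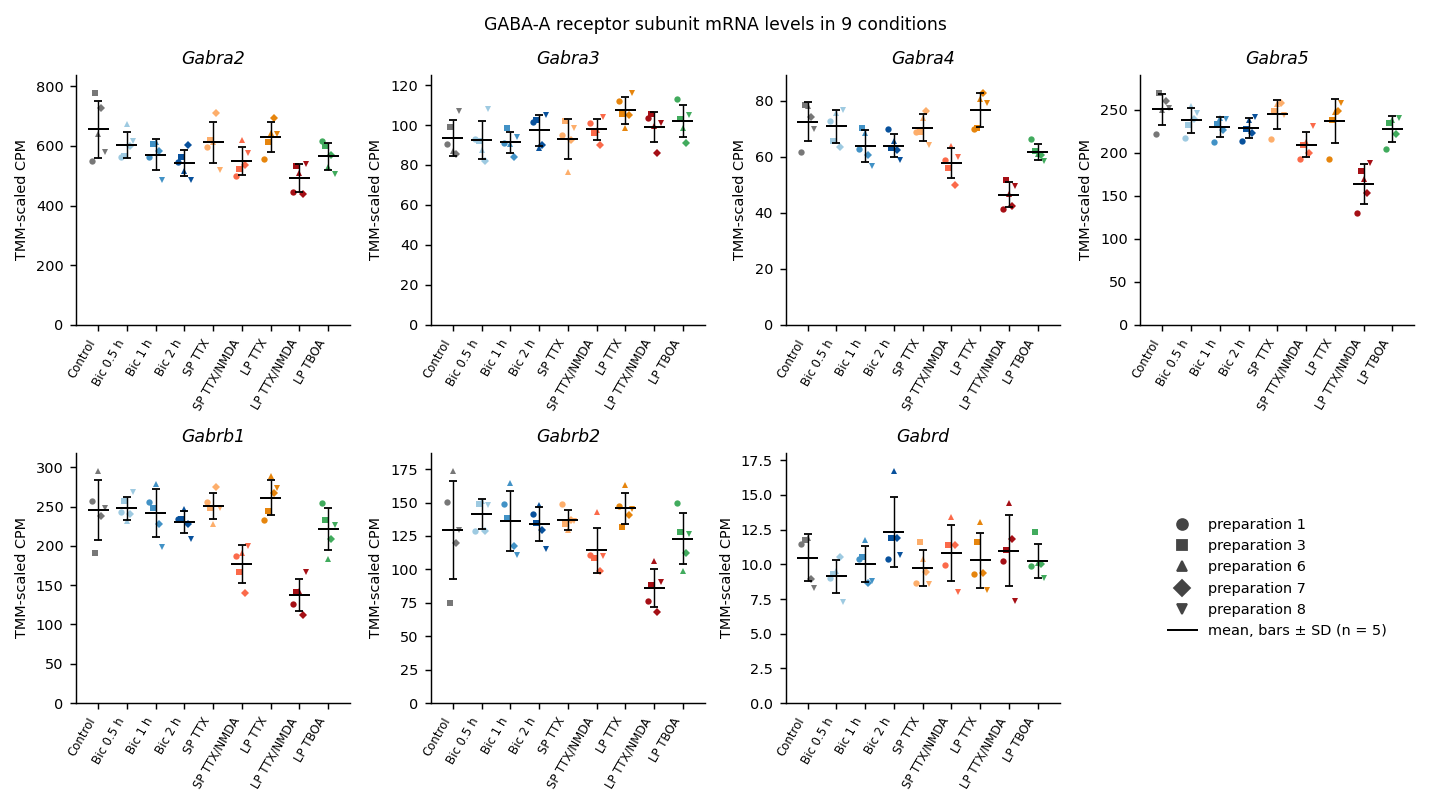
TMM-scaled CPM of each subunit mRNA (y axis from 0) in the 5 libraries of each of the 9 conditions, with the marker shape giving the preparation and black lines the mean ± SD. Gabrb1, Gabra4, Gabra5 and Gabrb2 are lowest with TTX/NMDA in the LP, with means of 138, 46.4, 163 and 86.1 CPM, while Gabra3 stays between means of 91.5 and 107 CPM.

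The time course of Bic asks how the subunit mRNAs responded to AP firing and blockade of the receptor. After 0.5 h Bic, none of the 7 was called by edgeR (0.289% of all genes were), none had an unadjusted p under 0.05, and DESeq2 also called none. After 1 h, again 0 were called by edgeR and by DESeq2 (1.16% of all genes by edgeR), while Gabra2 and Gabra4 had an unadjusted p under 0.05. After 2 h, 1 of 7 was called, against 9.02% of all genes called and 4.78% called lower, or 18.6% and 10.4% among the 13592 genes, so that the share of called subunits was not above that of other expressed genes.

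The subunit called after 2 h was Gabra2. Its level was 549, 778, 640, 729 and 581 CPM in the control libraries of preparations 1, 3, 6, 7 and 8, and 548, 563, 516, 603 and 486 CPM after 2 h Bic. Each preparation was lower after Bic than in its own control, although the difference in preparation 1 was small and the ranges overlapped. Mean levels were 655 ± 96.6 and 543 ± 44.9 CPM, a log2 fold change of −0.28 (SE 0.09, adjusted p = 0.0364). With low-count genes removed by filterByExpr the adjusted p was 0.0516, and without preparation 3, 6 or 7 the call was also lost (adjusted p up to 0.0792), whereas with the preparation as a block, a fit that called 29.3% of its genes, it was kept (0.00751).

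The other α subunits moved less or not beyond their spread after 2 h Bic. Gabra4 differed by −0.20 (adjusted p = 0.136), Gabra5 by −0.14 (0.309) and Gabra3 by 0.05 (0.796). The β subunits had differences of −0.11 for Gabrb1 (0.513) and 0.03 for Gabrb2 (0.916). For Gabrb2 the control was itself variable, at 150, 75.2, 173, 120 and 129 CPM in preparations 1, 3, 6, 7 and 8. The value in preparation 3 was the lowest, and the same library was the lowest control for Gabrb1, at 190 CPM against 237 to 295. Leaving that preparation out moved the difference of Gabrb2 to −0.11, the opposite sign. Gabrd had a difference of 0.24 (adjusted p = 0.305) with levels of 10.4, 11.9, 16.7, 11.9 and 10.7 CPM after 2 h Bic, where 1 library stood above the rest.

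The passive effect sets TTX against Bic left uninterrupted for as long and so measures what ending AP firing did to the subunit mRNAs. In the SP, 0 of 7 were called by edgeR, by DESeq2 and at an unadjusted p under 0.05 (0.268% of all genes were called by edgeR), and the differences lay between −0.06 (Gabrd) and 0.13 (Gabra4). In the LP, 1 of 7, Gabra4, was higher with TTX, against 4.65% of all genes called and 3.03% called higher. Among the 13592 genes with a mean of at least 1 CPM, 10.4% were called.

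Gabra4 had 69.8, 63.0, 65.5, 62.4 and 58.7 CPM after 2 h Bic and 70.0, 70.2, 80.7, 82.7 and 79.3 CPM with TTX in preparations 1, 3, 6, 7 and 8. Every TTX library was above every Bic library, by a narrow margin in preparations 1 and 3. The log2 fold change was 0.25 (SE 0.07, adjusted p = 0.0187), and the call was lost without preparation 6 or 7 (adjusted p up to 0.134).

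The preparations pair the libraries, and with the preparation as a block 5 of 7 subunits were called in this comparison, against 32% of the genes in that fit called, 15.7% higher and 16.2% lower. In addition to Gabra4 (adjusted p = 0.00159), Gabra2 (0.20, 0.0035), Gabrb1 (0.16, 0.012) and Gabra3 (0.13, 0.0226) were higher with TTX and Gabrd was lower (−0.28, 0.00463). Without the block, Gabra2 had an adjusted p of 0.0714, Gabrb1 0.131, Gabra3 0.317 and Gabrd 0.233. Gabra5 and Gabrb2 were not called in either fit. The passive effect was not shown to differ between the LP and the SP for any of the 7 subunits, where 0.256% of all genes were called, 0 of the 7 were called with the preparation as a block (2.01% of the genes in that fit were), and the differences ran from −0.23 (Gabrd) to 0.12 (Gabrb1), all with unadjusted p-values above 0.05.

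**Figure D3:**
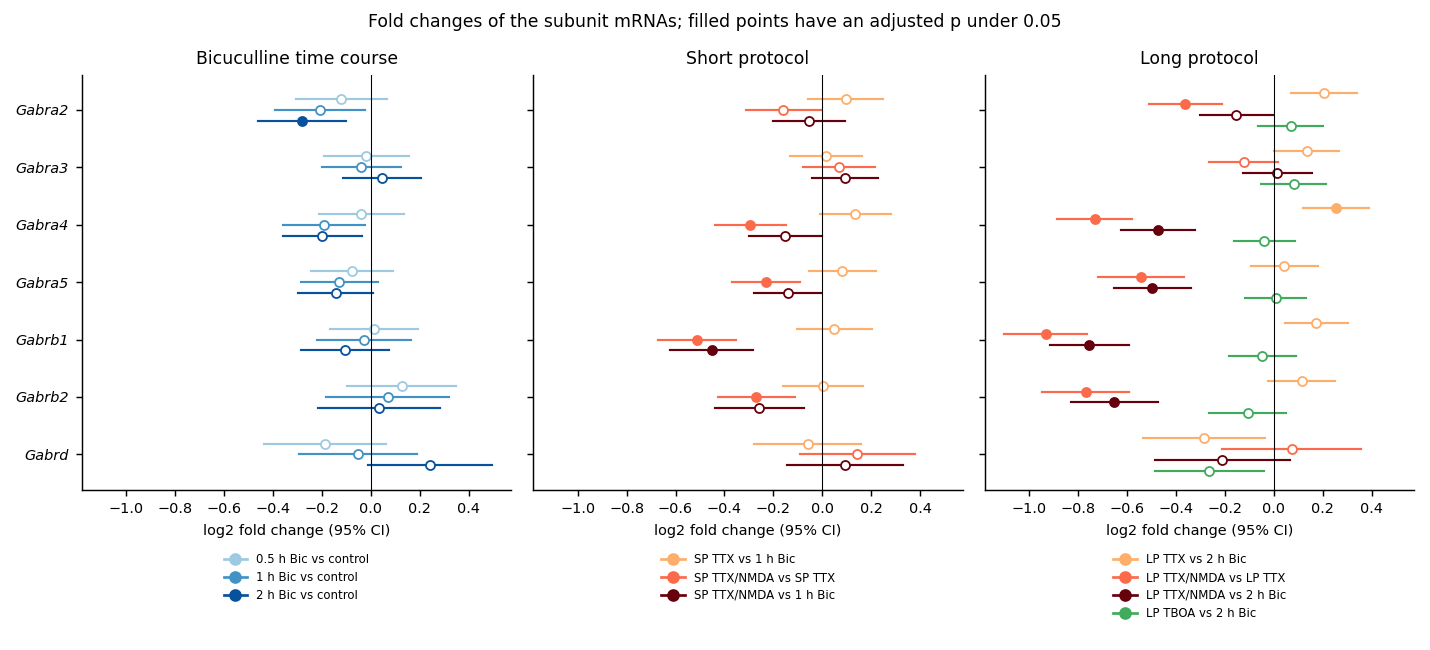
Log2 fold changes (points) with 95% confidence intervals (lines) of the 7 subunit mRNAs for the Bic time course, the SP and the LP, where filled points had an adjusted p under 0.05 by edgeR without a block. In the LP, the points for TTX/NMDA against TTX lie between −0.93 and −0.36 for the 5 called subunits and their intervals exclude 0, and no point for TBOA is filled.

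The active effect compares TTX/NMDA with TTX alone and isolates the addition of NMDA while firing is silenced. In the LP, 5 of 7 subunit mRNAs fell and none rose. This stands against 23.3% of all genes called and 11.8% called lower, or, among the 13592 genes with a mean of at least 1 CPM, 46.9% called and 26.9% called lower. The median log2 fold change was −0.54 over the 7 subunits and 0.11 over all genes tested, or −0.01 over those 13592 genes. Both β subunits and the α2, α4 and α5 subunits were among those that fell, and α3 and δ were not.

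The largest decrease was that of Gabrb1. It had 233, 245, 289, 267 and 273 CPM with TTX and 126, 141, 143, 112 and 167 CPM with TTX/NMDA in preparations 1, 3, 6, 7 and 8. The ranges were far apart, and preparation 7 had the lowest value with NMDA. Gabrb1 fell by 47.6% (95% CI −53.4 to −41.0%), a log2 fold change of −0.93 (SE 0.08, adjusted p = 6.84e-10).

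Gabrb2 had 148, 132, 163, 141 and 145 CPM with TTX and 76.6, 88.5, 106, 68.4 and 90.8 CPM with TTX/NMDA. Again no value with NMDA reached the TTX range, and preparations 1 and 7 showed the largest falls. Gabrb2 fell by 41.3% (95% CI −48.1 to −33.7%), a log2 fold change of −0.77 (SE 0.09, adjusted p = 5.51e-08).

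Gabra4, the head-to-head neighbour of Gabrb1, had 70.0, 70.2, 80.7, 82.7 and 79.3 CPM with TTX and 41.4, 51.7, 46.6, 42.4 and 49.6 CPM with TTX/NMDA. All 5 libraries with NMDA lay below all 5 without it. The log2 fold change was −0.73 (SE 0.08, adjusted p = 1.05e-08).

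Gabra5 had 193, 238, 247, 249 and 258 CPM with TTX and 129, 178, 169, 153 and 188 CPM with TTX/NMDA. Preparation 1 was the lowest of both conditions, so the ranges came close without overlapping. The log2 fold change was −0.54 (SE 0.09, adjusted p = 1.49e-05).

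Gabra2, which had the highest CPM of the 7, had 556, 613, 643, 693 and 640 CPM with TTX and 445, 533, 508, 438 and 539 CPM with TTX/NMDA. It was lower with NMDA in each preparation and the ranges did not overlap. The log2 fold change was −0.36 (SE 0.07, adjusted p = 0.000341).

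Gabra3 and Gabrd were not called in the same libraries. Gabra3 had 112, 106, 98.3, 105 and 116 CPM with TTX and 103, 106, 99.7, 86.1 and 101 CPM with TTX/NMDA, and the ranges overlapped. Its log2 fold change was −0.12 (95% CI −0.26 to 0.02). Only with the preparation as a block over all genes was Gabra3 called (−0.13, adjusted p = 0.036). Gabrd had 9.27, 11.6, 13.1, 9.39 and 8.12 CPM with TTX and 10.2, 11.1, 14.4, 11.8 and 7.36 CPM with TTX/NMDA, which were interleaved. Its log2 fold change was 0.07 (95% CI −0.21 to 0.36), an interval that lies above the point estimates of all 5 called subunits. As shares of the summed level per length, Gabra3 went from 11.1 ± 1.21% with TTX to 14.1 ± 1.35% with TTX/NMDA, whereas Gabrb1 went from 7.64 ± 0.306% to 5.54 ± 0.418% and Gabrb2 from 9.30 ± 0.903% to 7.52 ± 0.813%.

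**Figure D4:**
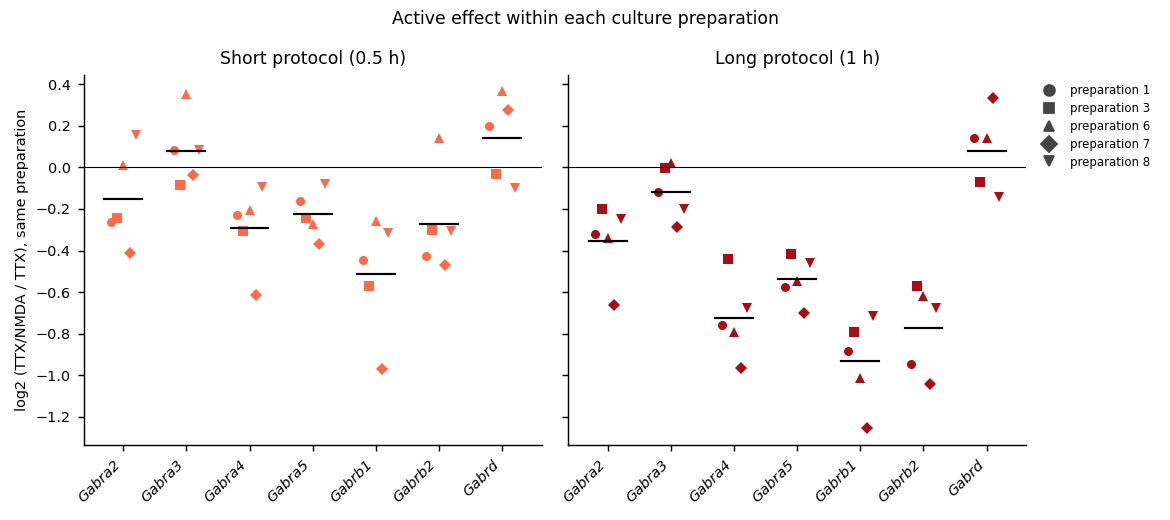
Log2 ratio of TTX/NMDA to TTX for each subunit within each of the 5 culture preparations (marker shapes) in the SP and the LP, with black lines for the mean. In the LP all 5 ratios are below 0 for Gabra2, Gabra4, Gabra5, Gabrb1 and Gabrb2, and preparation 7 has the lowest ratio for each of them.

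Within single preparations, the active effect of the LP on Gabrb1 ranged from −0.71 in preparation 8 to −1.25 in preparation 7 on the log2 scale. For Gabrb2 it ranged from −0.57 (preparation 3) to −1.04 (preparation 7), for Gabra4 from −0.44 (preparation 3) to −0.96 (preparation 7) and for Gabra5 from −0.41 (preparation 3) to −0.70 (preparation 7). The 5 calls were kept when each preparation was left out in turn and under every other setting tried.

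After the shorter exposure to NMDA of the SP, 4 of 7 subunits fell, against 4.28% of all genes called and 3.32% called lower (9.54% and 7.81% among the 13592 genes). Gabrb1 led again. It had 256, 248, 228, 275 and 248 CPM with TTX and 188, 167, 191, 140 and 200 CPM with TTX/NMDA, with no overlap and the lowest value in preparation 7. The log2 fold change was −0.51 (SE 0.08, adjusted p = 3.38e-05), and this call was kept under every setting tried.

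Gabra4 had 68.9, 68.9, 73.7, 76.3 and 64.1 CPM with TTX and 58.7, 55.8, 64.0, 49.9 and 60.02 CPM with TTX/NMDA in the SP. The ranges met without overlapping. Its log2 fold change was −0.29 (SE 0.07, adjusted p = 0.00975), and without preparation 7 the adjusted p was 0.127.

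Gabra5 and Gabrb2 were called by smaller margins and with overlapping ranges in the SP. Gabra5 differed by −0.23 (adjusted p = 0.0435) and was lower with NMDA in 5 of 5 preparations. Gabrb2 differed by −0.27 (adjusted p = 0.0359) and was lower in 4 of 5, since preparation 6 had 143 CPM with TTX/NMDA where the others had 98.8 to 111. With the preparation as a block, which called 16.2% of the genes in that fit, 3 of the 7 were called and Gabrb2 had an adjusted p of 0.0511. Leaving out 1 preparation ended the call for Gabra5 in 4 of 5 cases (1, 3, 6 or 7; adjusted p up to 0.204) and that for Gabrb2 in 3 (1, 3 or 7; up to 0.215), and without preparation 7 Gabrb1 alone was called. Gabra2 (−0.16), Gabra3 (0.07) and Gabrd (0.14) were not called in the SP.

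The active effect of the LP was compared with that of the SP in 1 fit over the 20 libraries of both. The difference of the log2 fold changes, LP minus SP, was −0.48 for Gabrb2 (SE 0.13, adjusted p = 0.0264) and −0.42 for Gabra4 (SE 0.10, adjusted p = 0.0163). These 2 of 7 subunits were called, against 2.57% of all genes and 1.85% in this direction (6.09% and 4.66% among the 13592 genes). Gabrb1 (−0.41, adjusted p = 0.0676) and Gabra5 (−0.30, adjusted p = 0.199) did not pass without a block and passed with it (0.0168 and 0.00386), where 25% of the genes in that fit were called. Gabra2, Gabra3 and Gabrd had intervals that included 0, namely −0.41 to 0.03, −0.38 to 0.03 and −0.46 to 0.34. The call for Gabra4 was lost without preparation 1 or 6 (adjusted p up to 0.0797), and that for Gabrb2 was lost without preparation 1 (0.0782) and with a robust estimate of the spread (0.0784).

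The total effect sets TTX/NMDA against uninterrupted Bic. It shares the TTX/NMDA libraries with the active effect and the Bic libraries with the passive effect and the Bic time course, as the passive and active effects share the TTX libraries, so these comparisons are not independent of each other. In the LP, 4 of 7 subunits fell and none rose, against 22.8% of all genes called and 11.1% called lower (45.3% and 25.1% among the 13592 genes). Gabrb1 had 234, 234, 246, 228 and 209 CPM after 2 h Bic, all above the TTX/NMDA range of 112 to 167 CPM, and a log2 fold change of −0.75 (SE 0.08, adjusted p = 3.74e-09).

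Gabrb2 had 142, 135, 148, 129 and 115 CPM after 2 h Bic, which did not overlap the 68.4 to 106 CPM with TTX/NMDA. Its log2 fold change was −0.65 (SE 0.09, adjusted p = 4.38e-07). Gabra5, with 213 to 241 CPM after 2 h Bic and 129 to 188 CPM with TTX/NMDA, changed by −0.50 (SE 0.08, adjusted p = 5.76e-06), and Gabra4 by −0.48 (SE 0.08, adjusted p = 6.26e-06), also without overlap. These 4 calls were kept under every setting tried. Gabra2 was not among them (−0.15, adjusted p = 0.141), nor were Gabra3 (0.01, 95% CI −0.13 to 0.16) and Gabrd (−0.21, 95% CI −0.49 to 0.06). Gabra2 was called without preparation 8 (−0.23, adjusted p = 0.00595) and with the preparation as a block over all genes (adjusted p = 0.0103).

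In the SP, 1 of 7 subunits fell in the total effect, Gabrb1 with −0.45 (SE 0.08, adjusted p = 0.000374). This stands against 4.3% of all genes called and 3.41% called lower (9.38% and 7.75% among the 13592 genes). With the preparation as a block 4 were called lower, against 27.3% of the genes in that fit called and 15.6% called lower. The added subunits were Gabrb2 (−0.26, adjusted p = 0.00246), Gabra5 (−0.15, 0.0136) and Gabra4 (−0.16, 0.0473), whose adjusted p-values without the block were 0.106, 0.315 and 0.335.

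TBOA raises glutamate without added NMDA, and its effect on the subunits was small in comparison with 2 h Bic. By edgeR and by DESeq2, 0 of 7 were called (0.602% of all genes by edgeR), and 1, Gabrd, had an unadjusted p under 0.05. Gabrd had 9.89, 12.3, 10.1, 10.01 and 8.99 CPM with TBOA against 10.4 to 16.7 CPM after 2 h Bic, a log2 fold change of −0.26 (95% CI −0.49 to −0.04, adjusted p = 0.515). For Gabrb1 the difference was −0.05 (95% CI −0.18 to 0.09) and for Gabra4 −0.04 (95% CI −0.16 to 0.09), which excludes decreases of the size seen with TTX/NMDA in the same comparison with Bic. Gabrb2 had −0.11 (95% CI −0.26 to 0.05).

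Markers of other cells and of neurons moved in the same libraries in which the subunits fell. In a bulk sample, fewer cells of a type and less RNA per cell cannot be told apart. Between 2 h Bic and TTX/NMDA in the LP, all 5 excitatory neuron markers were lower, with a summed level of 2999 to 3524 CPM after Bic and 1446 to 2064 CPM with TTX/NMDA. Of the 5 pan-neuronal markers, 2 were lower (sums of 5122 to 5548 and 4546 to 4884 CPM), and of the 6 inhibitory neuron markers, 1 was higher and none lower (1723 to 2459 and 1948 to 2983 CPM). Of the 6 astrocyte markers, 5 were higher and 1 lower (930 to 1314 and 1056 to 1843 CPM), and 3 of 5 oligodendrocyte lineage markers were higher (36.98 to 66.1 and 35.99 to 87.1 CPM). Their part in the subunit results was not tested. In the active effect of the SP, the excitatory markers summed to 2964 to 3580 CPM with TTX and 1997 to 2614 CPM with TTX/NMDA. In the total and active effects of the LP, the median log2 fold changes were −0.66 and −0.83 for the excitatory markers. They were −0.10 and −0.16 for the pan-neuronal, 0.24 and 0.30 for the inhibitory and 0.77 and 0.84 for the astrocyte markers. The median of the 7 subunits was −0.48 and −0.54. Single subunits ranged from −0.75 (Gabrb1) to 0.01 (Gabra3) in the total effect and from −0.93 (Gabrb1) to 0.07 (Gabrd) in the active effect.

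The rest of the GABA-A receptor pathway was described through lists of 12 other subunits, 24 genes of receptor clustering and trafficking and the 2 GABA-B receptor subunits. Of the 12 other subunits, 6 had a mean of at least 1 CPM, and in the total effect of the LP 1 was higher. This was Gabrg1, the γ1 subunit, which rose from 10.5 ± 1.68 to 13.3 ± 2.5 CPM (0.35, adjusted p = 0.0289). In the active effect of the LP, none of the 12 was called higher.

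Of the 23 clustering and trafficking genes that matched, 16 were lower and 1 higher in the total effect of the LP, against 45.3% called and 25.1% called lower among the 13592 genes. The median log2 fold change of the list was −0.24, against −0.48 for the 7 subunits, 0.11 for all genes tested and 0.0045 for the 13592 genes. The largest decreases were those of Mdga1, which encodes a neuroligin-binding synapse protein (−1.42, adjusted p = 2.47e-11), Iqsec3, a gephyrin-binding exchange factor of inhibitory synapses (−0.76, 1.36e-09), and Nsf, the ATPase of vesicle fusion (−0.75, 1.65e-10). The gene that rose was Gabarap, whose product binds γ subunits (0.20, adjusted p = 0.0214). After 2 h Bic, 3 of the 23 were called, a share below the 18.6% of the 13592 genes, of which Trak1 (0.33) and Shisa7 (0.32), an auxiliary subunit of the receptor, were higher and Slitrk3, a synaptic adhesion protein, was lower (−0.35). Both GABA-B subunits were lower in the total effect of the LP, Gabbr2 by −0.53 and Gabbr1 by −0.35.

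The 4 subunits with the largest decreases followed each other closely over the 9 condition means of log2 CPM, with Pearson correlations from 0.92 (Gabra5 and Gabrb2) to 0.96 (Gabrb1 and Gabrb2). These means come from the same 45 libraries and 5 preparations and are given as a description. The 4 were chosen by their decrease with TTX/NMDA, which is among these conditions, and Gabra2 also correlated with Gabra4 at 0.94. Within conditions the pattern differed, because the deviations of the 45 libraries from their condition means correlated at 0.82 for Gabrb1 and Gabrb2 and 0.74 for Gabra2 and Gabra4, but at −0.07 for Gabra5 and Gabrb2. Gabra4 and Gabrb1, which overlap at their 5′ ends, had 0.50. Gabrd did not follow the other subunits over conditions, with correlations from −0.50 (Gabra2) to 0.31 (Gabra3).

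Some subunits also differed between preparations. Averaged over the 9 conditions, Gabrd deviated from its condition means by 0.22 in preparation 6 and by −0.26 in preparation 8 on the log2 scale. Gabra5 was at −0.18 in preparation 1 and Gabrb2 at 0.16 in preparation 6. For Gabra4 no preparation deviated by more than 0.07.

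Among 13592 genes with a mean of at least 1 CPM, those most similar to each subunit over the 9 condition means were named by their Pearson correlation, which is a description over 9 points that share libraries. Gabrb1 was closest to Nrip3 (0.998) and Nlgn1 (0.997), Gabrb2 to Lonrf2 (0.994) and Csmd3 (0.992), and Gabra4 to Tmx4 (0.995) and Uhrf1bp1l (0.990). Gabra5 was closest to Spin1 (0.992) and Hp1bp3 (0.988), and Gabra2 to Ppp2r5c (0.989) and Rabep1 (0.983). Gabra3 was closest to Armcx1 (0.985) and Cab39l (0.982), and Gabrd to Stk16 (0.995) and Tpi1 (0.969).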

How the data were processed

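The labels describe poly-A, strand-specific, single-end libraries of 75 cycles. The authors used bcl2fastq 2.20.0.422, aligned reads with STAR 2.5.4b to GRCm38 with Ensembl release 94, counted them with featureCounts 1.6.5 on the sense strand, leaving out reads with several locations or genes, and deposited raw counts per gene. Reads shared by overlapping genes of 1 strand are therefore missing from both. Depth was 11316580 to 81129276 counts per library.

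From these counts, pairs of conditions were compared with edgeR 4.0.16 (R 4.3.3; TMM, quasi-likelihood F test, two-sided, genes with at least 1 read in the 10 libraries, Benjamini-Hochberg, threshold 0.05), differences of effects over 20 libraries and any difference over 45. Alternatives were RLE factors, filterByExpr, the preparation as a block over filterByExpr genes (the paired fit) or over all genes, DESeq2 1.42.0, 1 fit of all libraries and leaving out each preparation; a robust estimate of the spread was added after seeing the data. The library titles give a number, which was taken as the culture preparation because the paper reports 5 experiments on separate preparations. This pairs the libraries, and same-numbered libraries deviated together with mean correlations of 0.38 to 0.57 across 13592 genes. Replicate libraries correlated at 0.986 to 0.997 and 0 were identical. The scripts were tested on simulated data. Symbols matched 54409 of 54532 Ensembl identifiers. Positions and exon lengths came from GENCODE M21 (GRCm38), which is not the authors' release. Named genes were all 7 subunits, up to 3 genes per list and direction with the largest called change in the total effect of the LP or after 2 h Bic, and the 2 genes most similar to each subunit. Subunits and lists were chosen with earlier results of these data known. Results for 1 gene of the lists are not reported here.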

Additional observations from a re-analysis of the deposited data

Results flagged for a closer look

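In 2 of 63 groups of 5 libraries (7 subunits in 9 conditions), 1 library stood apart from the others by Dixon's criterion at the 95% level, which chance alone gives in about 1 in 20 groups. Gabrb2 had 143.2 CPM in preparation 6 with TTX/NMDA in the SP, where the other 4 libraries had 98.8 to 111 CPM. Gabrd had 16.7 CPM in preparation 6 after 2 h Bic, where the others had 10.4 to 11.9 CPM.

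The active effect differed between the protocols for 2 subunits by the test of the difference itself in edgeR. The log2 difference, LP minus SP, was −0.4232 for Gabra4 (adjusted p = 0.0163) and −0.4844 for Gabrb2 (adjusted p = 0.0264).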

How the results depend on the processing

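Of 18 called subunit values, the 5 of the active and 4 of the total effect in the LP and both Gabrb1 calls in the SP were kept under every alternative. Numbers of called subunits moved as follows. The preparation block of the paired fit gave 4 subunits in the SP total effect, 5 in the LP passive effect and 4 in the difference of active effects, and over all genes it gave 4, 5 and 5, with 1 after 1 h Bic and 3 after 2 h Bic; no other count moved by more than 1.5 times with the block. FilterByExpr gave 0 after 2 h Bic, 1 fit of all 45 libraries gave 2 in the SP active effect, and DESeq2 gave 2 in the LP passive effect. The robust estimate of the spread, chosen after seeing the data, gave 2 in the LP passive effect and 1 in the difference of active effects. The cause was not tested.

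Leaving out each preparation in turn gave 0 to 2 subunits after 2 h Bic, 1 to 4 in the SP active effect, 1 to 2 in the SP total effect, 0 to 3 in the LP passive effect, 5 in the LP active effect, 4 to 5 in the LP total effect and 0 to 3 in the difference of active effects. None of the values that changed sign was called. They were, as log2 ranges, −0.0313 to 0.0104 (0.5 h Bic), −0.0632 to 0.0139 (1 h Bic), −0.0076 to 0.0897 (SP passive) and −0.0021 to 0.0546 (LP total) for Gabra3; −0.0931 to 0.0226 (0.5 h Bic) for Gabra4; −0.0105 to 0.0254 (TBOA) for Gabra5, which was −0.0048 in 1 fit of all libraries; −0.0746 to 0.11 (0.5 h Bic), −0.12 to 0.0464 (1 h Bic), −0.0073 to 0.15 (SP passive) and −0.0903 to 0.0346 (TBOA) for Gabrb1; and −0.0322 to 0.23 (0.5 h Bic), −0.0855 to 0.14 (1 h Bic), −0.11 to 0.13 (2 h Bic), −0.0564 to 0.12 (SP passive) and −0.0035 to 0.14 (difference of passive effects) for Gabrb2. Gabrd had the fewest reads of the 7, with 113 to 763 per library.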
